A study of Mus musculus with 2 samples.

Results

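The 10 core genes of transforming growth factor-β (TGF-β) signaling were followed across the cell types of the fatty mouse liver. They were the 3 ligand genes Tgfb1, Tgfb2 and Tgfb3, the 3 receptor genes Tgfbr1, Tgfbr2 and Tgfbr3, and the 4 SMAD genes Smad2, Smad3, Smad4 and Smad7. The genes were taken by name, and all 10 were found among the 19059 genes measured in both libraries. On the GRCm38 build, Tgfb1 lies on chromosome 7 from 25687002 to 25705077, Tgfb2 on chromosome 1 from 186622792 to 186705989, and Tgfb3 on chromosome 12 from 86056745 to 86079041. Tgfbr1 lies on chromosome 4 from 47353222 to 47414931, Tgfbr2 on chromosome 9 from 116084293 to 116175360, and Tgfbr3 on chromosome 5 from 107106570 to 107289629. Smad3 is on chromosome 9 from 63646767 to 63757994, and Smad2, Smad4 and Smad7 are on chromosome 18.

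The single-cell data came from 2 libraries, 1 per genotype label. In AEG-1DMAC mice the floxed AEG-1 gene (Mtdh, which encodes the scaffold protein metadherin) is deleted with Cre under the Lyz2 (LysM) promoter, which is active in myeloid cells such as macrophages and neutrophils. Their AEG-1fl/fl littermates carry the floxed gene, and the labels name no Cre for them. Mice of both genotypes started a high-fat, high-sugar diet (HF/HSD) at 7 weeks, ate it for 20 weeks and were 27 weeks old. The sources used here do not say how many livers went into a library. With 1 library per label there was no replicate, so no difference between labels was tested, and variation between mice cannot be told apart from an effect of genotype.

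TGF-β is secreted in a latent form, bound to its propeptide and held in the matrix or on cell surfaces, and is freed by integrins, thrombospondin and proteases. The active ligand binds the type II receptor encoded by Tgfbr2, which phosphorylates the type I receptor encoded by Tgfbr1, while betaglycan, encoded by Tgfbr3, presents ligand to them. The type I receptor phosphorylates SMAD2 and SMAD3, which enter the nucleus with SMAD4. SMAD7 is induced by the signal and inhibits the receptor in turn. In the injured liver the pathway is best known for driving hepatic stellate cells to make collagen.

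The deposited counts summed to 79589511 in the library labelled AEG-1DMAC and to 90440089 in the library labelled AEG-1fl/fl. Where a pair of values stands together from here on, the library labelled AEG-1DMAC comes first and the library labelled AEG-1fl/fl second. After filtering, 2571 and 3508 cells remained, with median counts of 12746 and 7682, and 10 cell barcodes occurred in both libraries. Cells were assigned to a type by marker genes that include no gene of the TGF-β pathway. The gates held 1156 and 1120 hepatocyte-like, 246 and 636 macrophage-like, 300 and 398 endothelial cell-like, and 204 and 314 stellate cell-like cells. Smaller gates held 37 and 112 cholangiocyte-like cells, 15 and 44 dendritic cell-like cells, 14 and 59 neutrophil-like cells, 56 and 87 B cell-like cells and 66 and 119 T and NK cell-like cells, while 477 and 619 cells passed no gate. The cell type names are rebuilt ones, which can itself make values differ from the study's. Unsupervised Seurat clusters of the same name held from 88.5% to 99.1% of the hepatocyte-, macrophage-, endothelial cell- and stellate cell-like cells of a library. They held from 71.2% to 97.3% of the cholangiocyte-, T and NK cell- and B cell-like cells, but 42.9% and 74.6% of the neutrophil-like and 20.0% and 27.3% of the dendritic cell-like cells. Conversely, the macrophage-like clusters held 423 and 977 cells, of which 228 and 595 were gated macrophage-like. Of these clusters, 1 with 193 and 400 cells was shallow, at median counts of 1548 and 1796.

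The deleted gene was looked at first. Mtdh had 302 and 138 counts in macrophage-like cells, or 121 CPM in the library labelled AEG-1DMAC and 25.1 CPM in the library labelled AEG-1fl/fl, where CPM are summed counts scaled to the same total in every cell type and library. Hepatocyte RNA in these cells, estimated below, would alone give 30.3 and 17.6 CPM of Mtdh. The log2 ratio, always the library labelled AEG-1DMAC over the other, was 2.27 with a 95% counting interval from 1.98 to 2.57, so Mtdh was higher under the label that names its deletion. In the 3 other large types Mtdh stood at 93.7 and 90.7 CPM (stellate cell-like), 62.1 and 58.4 CPM (hepatocyte-like) and 86.4 and 91.3 CPM (endothelial cell-like). The ratio of Mtdh lay near 0 in these types, at 0.05 in stellate cell-like cells, 0.09 in hepatocyte-like cells and -0.08 in endothelial cell-like cells. Among the smaller types it was 1.51 (0.74 to 2.24) in dendritic cell-like, 0.62 (0.20 to 1.04) in B cell-like and 0.31 (-0.094 to 0.70) in T and NK cell-like cells. The ratio in cholangiocyte-like cells was 0.13 (-0.26 to 0.52), and that in neutrophil-like cells 0.058 (-1.01 to 1.07, 14 and 24 counts). Neutrophils also express Lyz2. However, their 49.1 and 47.1 CPM of Mtdh compare with 49.4 and 42.6 CPM that hepatocyte RNA alone would give. In the library labelled AEG-1DMAC, 1 cell held 64.3% of the 14 counts. The neutrophil-like ratio therefore cannot show whether Mtdh was deleted in these cells. Where the probes lie relative to the deleted exons was not known here. Because the level of Mtdh goes against the labels, every direction given here rests on the labels as deposited. By these labels, macrophage-like cells numbered 246 and 636, and Col1a1 of stellate cell-like cells stood at 1844 and 5811 CPM. The paper reports weaker macrophage staining and less fibrosis in AEG-1DMAC than in AEG-1fl/fl livers on this diet. An exchange of labels was not tested.

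Cells that are not hepatocytes carried hepatocyte RNA, and in most types more of it in the library labelled AEG-1DMAC. As estimated from the hepatocyte markers, it made up 48.8% and 30.0% of the counts of macrophage-like cells, 61.1% and 44.7% in endothelial cell-like cells, and 67.7% and 52.2% in stellate cell-like cells. In cholangiocyte-like cells it made up 96.5% and 72.5%. The shares were nearly equal in B cell-like cells, at 79.8% and 79.3%, and in dendritic cell-like cells the order was the opposite, at 33.5% and 56.0%. Erythroid markers, too, differed, with 476 and 143 CPM in macrophage-like, 574 and 661 CPM in endothelial cell-like and 435 and 230 CPM in stellate cell-like cells; their part in the results was not tested. Over all genes the median log2 ratio was 0.01 in hepatocyte-like, -0.08 in macrophage-like, -0.18 in endothelial cell-like and -0.16 in stellate cell-like cells, and ratios were not centred on it. The 10 genes were therefore also measured in cells with under 4% of their counts in hepatocyte markers, called cells with little hepatocyte RNA below. These were 123 and 469 macrophage-like cells, 134 and 278 endothelial cell-like cells, and 64 and 174 stellate cell-like cells, with an estimated hepatocyte RNA share between 13.0% and 21.4%.

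Tgfb1, the main TGF-β ligand of immune cells and platelets, was high in macrophages, dendritic cells and endothelial cells, lower in T and NK cells, and lowest in hepatocytes. In macrophage-like cells Tgfb1 stood at 186 CPM (95% counting interval 169 to 203, 464 counts) and 301 CPM (287 to 316, 1659 counts). Dendritic cell-like cells had 260.1 CPM (173 to 376) and 225 CPM (188 to 268) of Tgfb1, from 15 and 44 cells only. The macrophage-like and dendritic cell-like levels overlapped in the library labelled AEG-1DMAC and did not overlap in the library labelled AEG-1fl/fl. Tgfb1 followed with 141 and 224 CPM in endothelial cell-like cells, 103 and 158 CPM in T and NK cell-like cells, and 71.9 and 121 CPM in stellate cell-like cells. B cell-like cells had 61.0 and 76.9 CPM and neutrophil-like cells 35.0 and 92.3 CPM. Hepatocyte-like cells had 11.1 and 13.9 CPM, so that the macrophage-like level was 16.7-fold and 21.7-fold higher. The 12.3 CPM of Tgfb1 in cholangiocyte-like cells of the library labelled AEG-1DMAC compare with 10.8 CPM that their hepatocyte RNA alone would give.

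**Figure D1:**
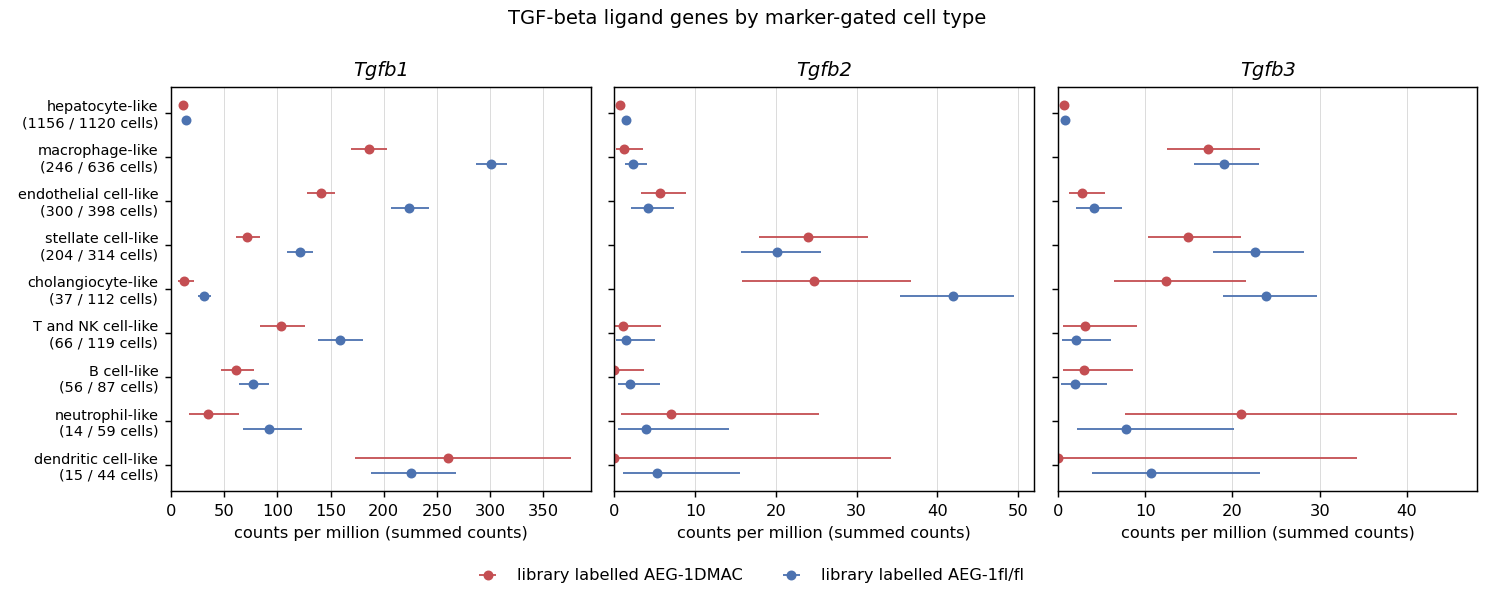
Levels of Tgfb1, Tgfb2 and Tgfb3 in 9 marker-gated cell types, in CPM of the summed counts of the type; points are the 2 libraries and bars are 95% Poisson intervals, which cover counting error only. Tgfb1 was highest in macrophage-, dendritic cell- and endothelial cell-like cells, whereas Tgfb2 was highest in cholangiocyte- and stellate cell-like cells and under 8 CPM in every other type.

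Between the labels, Tgfb1 was lower in the library labelled AEG-1DMAC in every cell type but the dendritic cell-like one. The log2 ratio was -0.70 (-0.85 to -0.55) in macrophage-like, -0.67 (-0.85 to -0.49) in endothelial cell-like and -0.75 (-1.02 to -0.48) in stellate cell-like cells. All intervals cover counting error only and take counts as independent molecules. In T and NK cell-like cells the log2 ratio of Tgfb1 was -0.62, in B cell-like cells -0.33, and in dendritic cell-like cells 0.21 (-0.44 to 0.81). The lowest ratios of Tgfb1 came from few counts, with -1.40 (-2.55 to -0.39, 10 and 47 counts) in neutrophil-like and -1.33 (-2.32 to -0.46, 12 and 104 counts) in cholangiocyte-like cells. The interval of the B cell-like ratio (-0.80 to 0.12) included 0 as well. The lower level was also seen in types gated on markers of cells outside the myeloid lineage that expresses Lyz2. Lyz2 itself stood at 208 and 138 CPM in endothelial cell-like and 220 and 201 CPM in stellate cell-like cells. In macrophage-like cells it stood at 1648 and 1267 CPM. The part of macrophage RNA in the Tgfb1 levels of other types was not tested. In cells with little hepatocyte RNA the log2 ratio of Tgfb1 was -0.54 (-0.74 to -0.34) in macrophage-like, -0.31 (-0.60 to -0.04) in endothelial cell-like and -0.71 (-1.25 to -0.21) in stellate cell-like cells. With the hepatocyte profile subtracted from each sum, the ratios were -0.27, -0.19 and -0.26. In macrophage-like cells 4 of 5 platelet markers were detected, with Gp1bb at 0, and their summed level was 37.6 and 103 CPM. They had 565 counts in the library labelled AEG-1fl/fl. Of these, 289 were in the Gpnmb-marked macrophage-like cells described below, where Itga2b, Gp9 and Gp1bb had no count. There the summed level thus came from Pf4 and Ppbp alone. In endothelial cell-like cells the platelet markers stood at 16.9 and 18.3 CPM and in stellate cell-like cells at 49.3 and 43.6 CPM. The part of platelet RNA in the Tgfb1 levels was not tested.

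The share of all Tgfb1 counts held by a cell type depends on its level and on the number of its cells recovered. Macrophage-like cells held 19.6% (18.1% to 21.3%) of the Tgfb1 counts of the library labelled AEG-1DMAC and 34.1% (32.8% to 35.4%) of those of the library labelled AEG-1fl/fl. Hepatocyte-like cells, despite their low level, held 28.2% and 17.9%, as they held most of the counts of each library. Endothelial cell-like cells held 19.0% and 12.3%, stellate cell-like cells 6.73% and 8.38%, and cells of no gate 17.4% and 14.4%. Macrophage-like cells made up 9.57% and 18.1% of the kept cells, and whether fewer were in the liver or fewer were recovered cannot be told apart here. Per cell, with every cell thinned to 3000 counts, Tgfb1 was detected in 40.0% (32.9% to 47.4%) of 185 and 54.7% (50.2% to 59.2%) of 488 macrophage-like cells, after 61 and 148 shallower cells were left out. Without thinning the shares were 56.5% and 67.5%, at median depths of 5514.5 and 5699 counts. In hepatocyte-like cells, which serve as the background for free RNA, 4.58% and 4.38% of the thinned cells had a Tgfb1 count, and 29.7% and 36.3% of the unthinned cells, which were far deeper with median counts of 28087.5 and 27728.

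Macrophage-like cells were split by their markers into Kupffer-marked cells (Clec4f, Vsig4, Marco, Cd5l, Timd4, Folr2) and Gpnmb-marked cells (Gpnmb, Mmp12, Trem2, Itgax, Atp6v0d2, Spp1, genes of lipid-associated macrophages). There were 222 and 441 Kupffer-marked and 24 and 195 Gpnmb-marked cells. Tgfb1 was higher in the Gpnmb-marked cells of each library, at 301 and 396 CPM against 178 and 256 CPM in Kupffer-marked cells. These intervals did not overlap. Estimated hepatocyte RNA made up 50.9% and 36.2% of the counts of Kupffer-marked cells and 17.0% of those of Gpnmb-marked cells in each library. In cells with little hepatocyte RNA, Tgfb1 stood at 305 and 418 CPM in Gpnmb-marked and 241 and 328 CPM in Kupffer-marked cells. The intervals then overlapped in the library labelled AEG-1DMAC (224 to 405 and 208 to 278) but not in the library labelled AEG-1fl/fl. Over all gated cells, the log2 ratio between the labels was -0.52 (-0.69 to -0.36) within Kupffer-marked and -0.40 (-0.85 to 0.03) within Gpnmb-marked cells. Both were closer to 0 than the -0.70 of all macrophage-like cells, whose mix of subsets differed between the libraries.

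Tgfb2, a ligand that depends most on betaglycan to reach the type II receptor, had another pattern. It stood at 24.7 CPM (15.8 to 36.7, 24 counts) and 42.0 CPM (35.3 to 49.5, 141 counts) in cholangiocyte-like cells, and at 24.0 CPM (18.0 to 31.4, 53 counts) and 20.2 CPM (15.7 to 25.6, 68 counts) in stellate cell-like cells. These 2 types overlapped in the library labelled AEG-1DMAC, while in the library labelled AEG-1fl/fl the cholangiocyte-like level was the higher. Endothelial cell-like cells had 5.64 and 4.11 CPM of Tgfb2, macrophage-like cells 1.20 and 2.36 CPM (3 and 13 counts), and hepatocyte-like cells 0.735 and 1.5 CPM. No count of Tgfb2 was found in the B cell-like and dendritic cell-like cells of the library labelled AEG-1DMAC, where 3 counts would be 2.95 and 27.9 CPM. Of all Tgfb2 counts, stellate cell-like cells held 31.2% and 18.9%, cholangiocyte-like cells 14.1% and 39.2%, and macrophage-like cells 1.76% and 3.61%.

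The difference of Tgfb2 between the labels rested on few counts. In hepatocyte-like cells it was lower in the library labelled AEG-1DMAC by a log2 ratio of -1.03 (-1.58 to -0.49), from 44 and 94 counts. The ratio in stellate cell-like cells was 0.25 (-0.30 to 0.79), an interval that includes 0. In the stellate cell-like cells with little hepatocyte RNA, however, Tgfb2 stood at 68.9 and 32.2 CPM (24 and 46 counts), a log2 ratio of 1.10 (0.32 to 1.84). Tgfb2 was the only ligand for which the stellate cell-like level was higher in the library labelled AEG-1DMAC. In cholangiocyte-like cells the ratio was -0.77 (-1.45 to -0.13) over all gated cells, -0.23 (-1.09 to 0.55) in those with little hepatocyte RNA, and 2.21 with the hepatocyte profile subtracted, so its direction was not settled.

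Tgfb3, the ligand often found in mesenchymal cells, was low in every type. It stood at 17.2 CPM (12.5 to 23.2) and 19.1 CPM (15.6 to 23.1) in macrophage-like, 14.9 and 22.5 CPM in stellate cell-like, and 12.3 and 23.8 CPM in cholangiocyte-like cells. The levels of these 3 types overlapped within each library. Of the 43 Tgfb3 counts of macrophage-like cells in the library labelled AEG-1DMAC, 1 cell held 41.9%, and all 43 were in Kupffer-marked cells. Neutrophil-like cells had 21.0 and 7.86 CPM of Tgfb3, from 6 and 4 counts. In endothelial cell-like cells the level was 2.82 and 4.11 CPM and in hepatocyte-like cells 0.718 and 0.764 CPM. The log2 ratio between the labels was -0.15 (-0.69 to 0.38) in macrophage-like and -0.59 (-1.23 to 0.01) in stellate cell-like cells, so a difference was not detectable at this depth in either.

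Of the receptors, Tgfbr1, the signaling type I receptor, was highest in macrophages. It stood at 131 CPM (117 to 146, 327 counts) and 302 CPM (287 to 317, 1662 counts) in macrophage-like cells. Dendritic cell-like cells had 102 and 95.8 CPM, neutrophil-like cells 63.1 and 110.0 CPM, stellate cell-like cells 62.0 and 96.7 CPM, and T and NK cell-like cells 55.8 and 86.9 CPM of Tgfbr1. Endothelial cell-like cells had 44.5 and 55.4 CPM, cholangiocyte-like cells 39.1 and 46.4 CPM, and hepatocyte-like cells 27.9 and 30.3 CPM. In the library labelled AEG-1fl/fl the macrophage-like level stood apart from every other type, and in the library labelled AEG-1DMAC it overlapped with that of dendritic cell-like cells. As with Tgfb1, the level of Tgfbr1 was higher in Gpnmb-marked cells, at 294 and 454 CPM, than in Kupffer-marked cells, at 120.0 and 229 CPM. Over all gated cells these intervals did not overlap in either library. In cells with little hepatocyte RNA the levels were 298 and 479 CPM against 229 and 286 CPM. The intervals then overlapped in the library labelled AEG-1DMAC (218 to 398 and 196 to 265) but not in the library labelled AEG-1fl/fl.

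**Figure D2:**
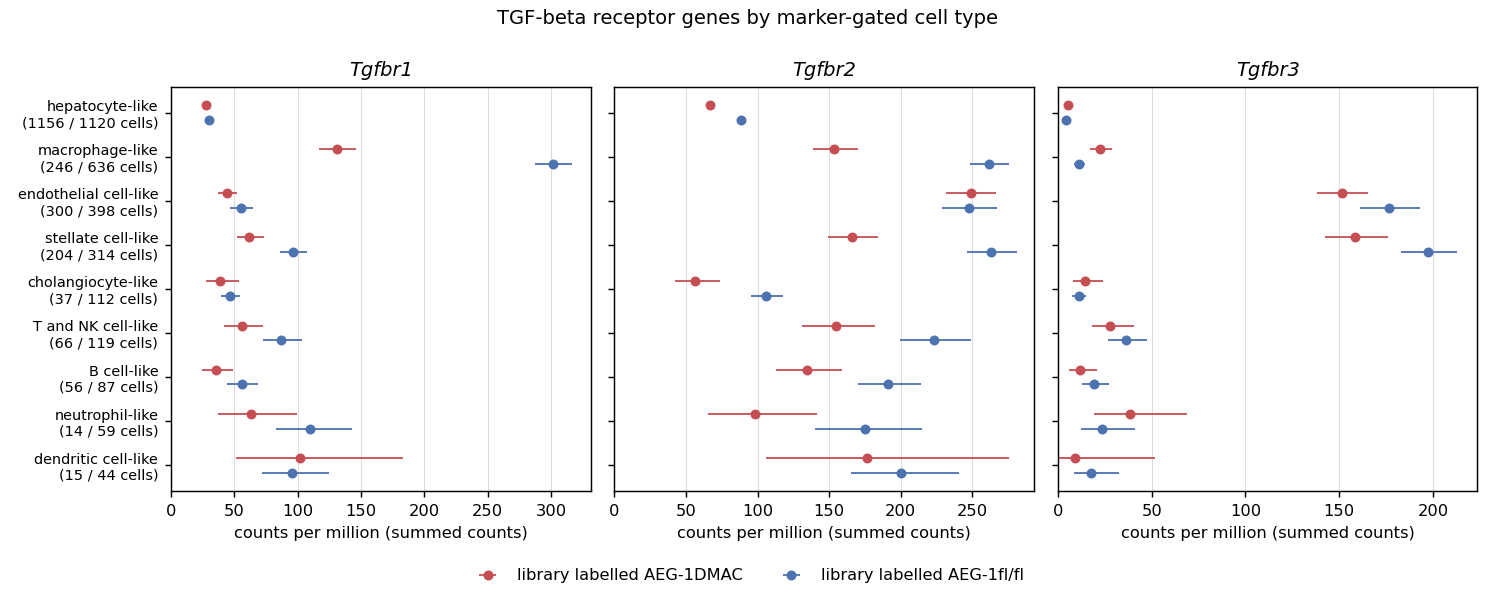
Levels of Tgfbr1, Tgfbr2 and Tgfbr3 in 9 marker-gated cell types, in CPM of the summed counts of the type; points are the 2 libraries and bars are 95% Poisson intervals for counting error only. Tgfbr1 was highest in macrophage-like cells, Tgfbr2 was spread over the nonparenchymal types other than cholangiocyte-like cells, and Tgfbr3 was concentrated in stellate and endothelial cell-like cells.

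Between the labels, Tgfbr1 in macrophage-like cells had the lowest ratio of the 10 genes in the 4 largest cell types. Its log2 ratio was -1.20 (-1.38 to -1.03), so its level in the library labelled AEG-1fl/fl was 2.30-fold that in the library labelled AEG-1DMAC. The ratio was -0.93 (-1.13 to -0.74) within Kupffer-marked and -0.63 (-1.09 to -0.20) within Gpnmb-marked cells. In cells with little hepatocyte RNA it was -0.61 (-0.82 to -0.40) for all macrophage-like cells, from 240 and 365 CPM, and -0.33 (-0.57 to -0.08) and -0.68 (-1.14 to -0.25) for the 2 subsets. All these ratios were below 0. Of the 24 and 195 Gpnmb-marked cells, whose estimated hepatocyte RNA share was 17.0% in each library, 22 and 170 had little hepatocyte RNA. Their ratios over all and over low-hepatocyte-RNA cells thus rest on nearly the same cells and cannot show what hepatocyte RNA contributed. In other types the log2 ratio of Tgfbr1 was -0.64 (-0.94 to -0.35) in stellate cell-like, -0.32 (-0.66 to 0.03) in endothelial cell-like and -0.12 (-0.22 to -0.03) in hepatocyte-like cells. Thinned to 3000 counts, 37.8% and 55.3% of macrophage-like cells had a Tgfbr1 count, against 8.39% and 9.73% of hepatocyte-like cells.

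Tgfbr2, the type II receptor that binds ligand first, was spread more evenly. It stood at 249 CPM (232 to 267) and 248 CPM (229 to 267) in endothelial cell-like cells, at 166 CPM (149 to 184) and 263 CPM (246 to 281) in stellate cell-like cells, and at 154 CPM (139 to 170) and 262 CPM (248 to 275) in macrophage-like cells. T and NK cell-like cells had 155 and 223 CPM, B cell-like cells 135 and 191 CPM, and dendritic cell-like cells 176 and 200 CPM of Tgfbr2. In the library labelled AEG-1fl/fl the stellate, macrophage-like and endothelial levels overlapped, whereas in the library labelled AEG-1DMAC the endothelial level stood above those of stellate and macrophage-like cells. With little hepatocyte RNA in the library labelled AEG-1fl/fl, the stellate level (336 to 400 CPM) stood above the macrophage-like level (282 to 317 CPM). The endothelial level (304 to 370 CPM) overlapped with both. Over all gated cells, cholangiocyte-like cells had 56.6 and 106 CPM. Hepatocyte-like cells had 66.8 and 88.5 CPM of Tgfbr2, and 18.9% and 21.4% of them had a count after thinning to 3000 counts. The level in endothelial cell-like cells was nearly equal between the labels, with a log2 ratio of 0.01 (-0.14 to 0.16). Against this, the ratio was -0.77 (-0.93 to -0.60) in macrophage-like, -0.67 (-0.84 to -0.49) in stellate cell-like and -0.41 (-0.47 to -0.35) in hepatocyte-like cells. In cells with little hepatocyte RNA it was 0.13 (-0.11 to 0.36) in endothelial cell-like, -0.63 (-0.86 to -0.40) in macrophage-like and -0.59 (-0.94 to -0.25) in stellate cell-like cells.

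Tgfbr3, the coreceptor betaglycan, marked stellate and endothelial cells. It stood at 158 CPM (142 to 176) and 197 CPM (183 to 213) in stellate cell-like cells and at 151 CPM (138 to 165) and 177 CPM (161 to 193) in endothelial cell-like cells. These 2 levels overlapped within each library. With little hepatocyte RNA they were 347 and 321 CPM in stellate cell-like and 281 and 253 CPM in endothelial cell-like cells. They then overlapped in the library labelled AEG-1DMAC but not in the library labelled AEG-1fl/fl (292 to 351 and 225 to 283). Over all gated cells the next types were well below, with 27.9 and 36.1 CPM in T and NK cell-like cells and 38.6 and 23.6 CPM in neutrophil-like cells. Macrophage-like cells had 22.4 and 11.3 CPM (56 and 62 counts) and hepatocyte-like cells 5.63 and 4.15 CPM. The log2 ratio of Tgfbr3 was -0.32 (-0.51 to -0.13) in stellate cell-like and -0.22 (-0.41 to -0.04) in endothelial cell-like cells. These small differences turned with the cells used: in cells with little hepatocyte RNA the ratios were 0.12 (-0.19 to 0.41) and 0.15 (-0.12 to 0.42). The ratio of 0.99 (0.45 to 1.54) in macrophage-like cells was -0.18 (-1.5 to 0.94) in those with little hepatocyte RNA and 0.00 as a mean over cells. In hepatocyte-like cells Tgfbr3 was higher in the library labelled AEG-1DMAC, at a log2 ratio of 0.44 (0.20 to 0.68).

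Smad2 and Smad4, the receptor-activated and the common mediator of the signal, varied little between cell types. Smad2 lay between 14 and 37.2 CPM in the library labelled AEG-1DMAC and between 15.7 and 35.5 CPM in the library labelled AEG-1fl/fl. In macrophage-like cells it stood at 30.0 and 32.5 CPM, and its log2 ratio was -0.11 (-0.52 to 0.28). In hepatocyte-like cells Smad2 stood at 16.7 and 15.7 CPM, a log2 ratio of 0.09 (-0.04 to 0.22). Among the 9 cell types no log2 ratio of Smad2 had an interval that left out 0. Smad4 stood at 74.1 and 75.9 CPM in cholangiocyte-like, 70.1 and 90.5 CPM in endothelial cell-like, 67.6 and 63.5 CPM in macrophage-like and 61.5 and 61.4 CPM in stellate cell-like cells, and at 35.9 and 38.6 CPM in hepatocyte-like cells. Its log2 ratio in stellate cell-like cells was 0.00 (-0.32 to 0.32). In endothelial cell-like cells the ratio was -0.37 (-0.64 to -0.10), and 0.07 (-0.34 to 0.47) in those with little hepatocyte RNA. The 149 and 56.8 CPM of Smad4 in dendritic cell-like cells came from 16 and 32 counts.

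Smad3, the partner of SMAD2 most tied to collagen genes, was highest in T and NK cells and bile duct cells. T and NK cell-like cells had 47.5 CPM (34.8 to 63.4) and 54.9 CPM (43.5 to 68.4) of Smad3, and cholangiocyte-like cells 41.1 and 45.8 CPM. Stellate cell-like cells had 19.0 and 32.3 CPM, endothelial cell-like cells 23.8 and 31.0 CPM, macrophage-like cells 13.6 and 19.1 CPM, and hepatocyte-like cells 14.7 and 13.0 CPM. Smad3 in stellate cell-like cells was lower in the library labelled AEG-1DMAC, with a log2 ratio of -0.77 (-1.32 to -0.24) from 42 and 109 counts. The ratio was -1.10 (-2.28 to -0.10) in the stellate cell-like cells with little hepatocyte RNA, from 9 and 79 counts. In hepatocyte-like cells the ratio was 0.18 (0.04 to 0.32). In neutrophil-like cells Smad3 had 2 and 22 counts.

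**Figure D3:**
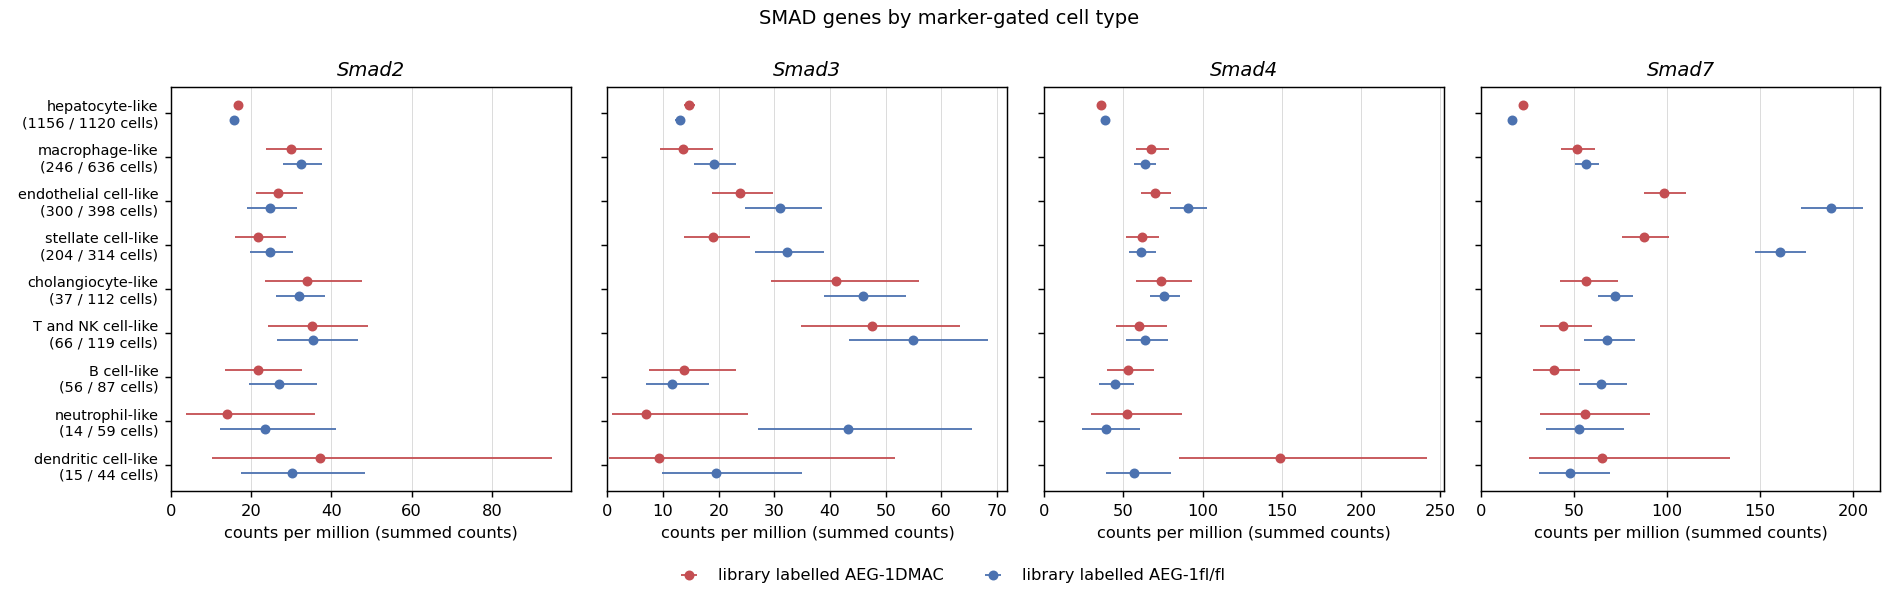
Levels of Smad2, Smad3, Smad4 and Smad7 in 9 marker-gated cell types, in CPM of the summed counts of the type; points are the 2 libraries and bars are 95% Poisson intervals for counting error only. Smad7 of endothelial and stellate cell-like cells is the SMAD level at which the libraries lie farthest apart outside the 2 smallest types, at 98.6 and 188 CPM and at 87.8 and 161 CPM.

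Smad7, the inhibitory SMAD, was highest in the cells that also carried most Tgfbr3. It stood at 98.6 CPM (88.0 to 110) and 188 CPM (172 to 205) in endothelial cell-like cells and at 87.8 CPM (75.9 to 101) and 161 CPM (147 to 175) in stellate cell-like cells. The other nonparenchymal types lay between 39.3 and 65.0 CPM in the library labelled AEG-1DMAC and between 47.9 and 72 CPM in the library labelled AEG-1fl/fl, with macrophage-like cells at 51.6 and 56.8 CPM. Hepatocyte-like cells had 22.9 and 16.7 CPM. Between the labels, Smad7 went in opposite directions in hepatocyte-like cells and in endothelial and stellate cell-like cells. The log2 ratio was -0.93 (-1.14 to -0.73) in endothelial cell-like and -0.87 (-1.12 to -0.63) in stellate cell-like cells, but 0.46 (0.34 to 0.57) in hepatocyte-like cells. In cells with little hepatocyte RNA it was -0.70 (-1.02 to -0.38) in endothelial cell-like and -0.35 (-0.72 to 0.01) in stellate cell-like cells. Thinned to 3000 counts, 26.6% and 45.0% of endothelial cell-like and 28.2% and 43.2% of stellate cell-like cells had a Smad7 count, against 7.01% and 5.09% of hepatocyte-like cells. In macrophage-like cells, where Tgfb1 and Tgfbr1 were lower, the log2 ratio of Smad7 was -0.14 (-0.45 to 0.16).

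Set side by side, the genes gave each cell type its own combination. Macrophage-like cells held the highest levels of Tgfb1 and Tgfbr1 among the 5 types compared under every setting (hepatocyte-, macrophage-, endothelial cell-, stellate cell- and cholangiocyte-like), except that subtracting the hepatocyte profile put Tgfbr1 of the library labelled AEG-1DMAC highest in cholangiocyte-like cells. Stellate cell-like cells combined Tgfbr2 and Tgfbr3 with Tgfb2 and Smad7, endothelial cell-like cells combined Tgfb1, Tgfbr2, Tgfbr3 and Smad7, and cholangiocyte-like cells combined Tgfb2 with Smad3. Hepatocyte-like cells had the lowest level of Tgfbr1, Tgfbr3, Smad4 and Smad7 of all 9 types in each library. Over the 18 profiles of a cell type in a library, the pair with the highest correlation was Tgfb1 with Tgfbr2 (Pearson r = 0.90), followed by Tgfbr3 with Smad7 (r = 0.84) and Tgfb1 with Tgfbr1 (r = 0.75). These are descriptions over profiles that share libraries and hepatocyte RNA.

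Over the same 18 profiles, the genes whose levels were most like those of a member were looked for among 12000 genes. For Tgfb1 they were Pkm (r = 0.96), Ncoa3 and Slc9a9, and for Tgfbr1 they were Slc37a2 (r = 0.95), Tnfrsf11a and Map11. The genes most like Tgfb2 were St6galnac2 (r = 0.94), Ano1 and Evc2, and those most like Tgfb3 were Ltbp3 (r = 0.88), which encodes a protein that binds latent TGF-β, with Clstn1 and Timp2. Tgfbr2 was most like Serinc3 (r = 0.93), Tgfb1 and Il3ra, and Tgfbr3 most like Slc43a3 (r = 0.98), Pxdn and Pla2r1. Among the SMADs, Smad7 was most like Plekhg2 (r = 0.93), Ttc28 and Hspg2. The profiles nearest to Smad2 were those of Pigv, Stmn1 and Jpt1, to Smad3 those of Ranbp6, Scai and Aak1, and to Smad4 those of Cul5, Zfp282 and Ttc21b.

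Over the 10 genes, few differences between the labels passed 2-fold. In hepatocyte-like cells 1 of 10 was past 2-fold lower in the library labelled AEG-1DMAC (Tgfb2), where 3.48% of 12760 genes with at least 20 counts were, and none of the 10 was past 2-fold higher, where 1.97% were. In macrophage-like cells it was 1 of the 9 with at least 20 counts (Tgfbr1), against 3.94% of 11382 genes, and 0 past 2-fold higher, against 3%. In endothelial cell-like cells 0 of 10 were past 2-fold, where 3.87% of 11333 genes were lower and 1.56% higher, and in stellate cell-like cells 0 of 10, where 5.7% of 11413 genes were lower and 1.17% higher. No test between labels was possible, so no adjusted p stands beside these counts. The median log2 ratio of the members was -0.10 in hepatocyte-like cells (0.01 over all genes), -0.15 in macrophage-like (-0.08), -0.34 in endothelial cell-like (-0.18) and -0.62 in stellate cell-like cells (-0.16). Counting intervals lay below 0 for 6 of 10 members in stellate cell-like cells, as for 22.4% of all genes, and above 0 for none, as for 9.41%. They lay below 0 for 4 of 10 (28.2% of all genes) and above for none (10.1%) in endothelial cell-like cells, below for 3 of 9 (21.1%) and above for 1 (14.7%) in macrophage-like cells, and below for 5 of 10 (28%) and above for 3 (29.5%) in hepatocyte-like cells. With little hepatocyte RNA, the members' median was -0.47 in stellate cell-like cells, where all genes had 0.06, -0.25 in macrophage-like cells, also with 0.06, and 0.10 in endothelial cell-like cells, with -0.04.

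**Figure D4:**
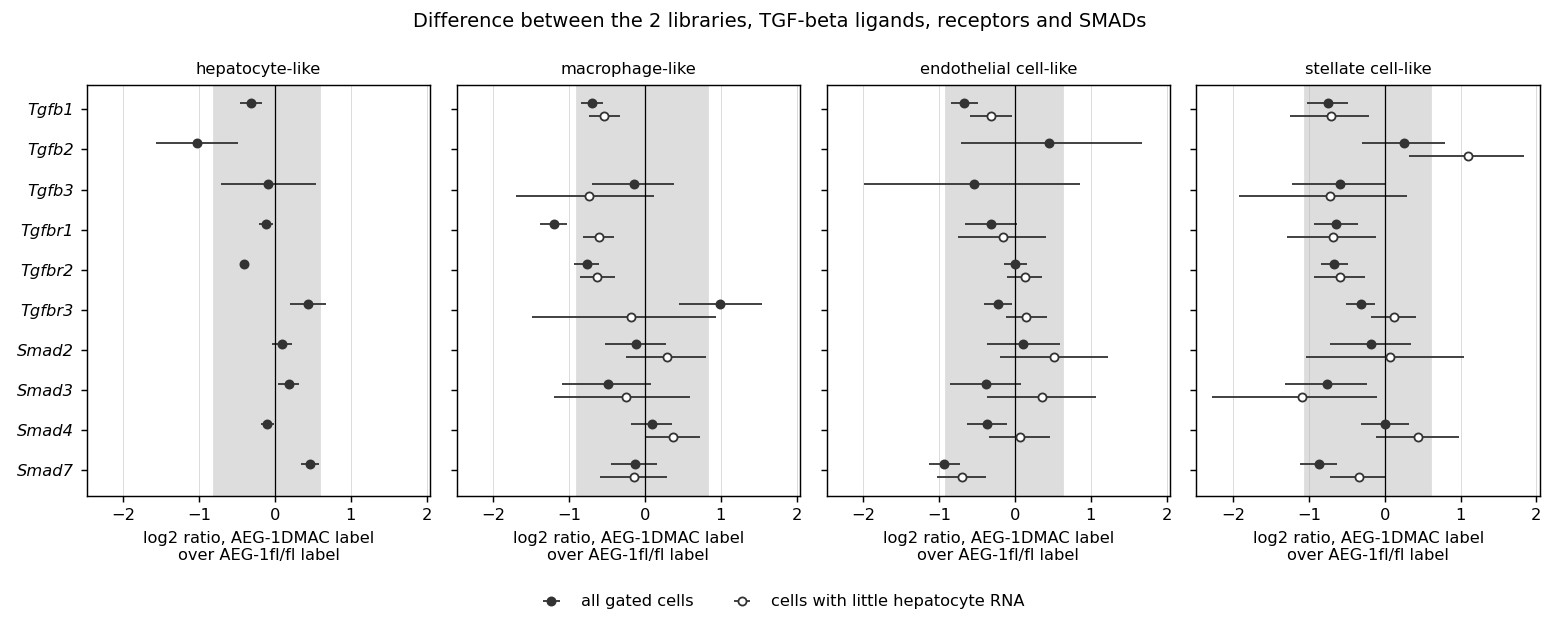
Log2 ratio (library labelled AEG-1DMAC over library labelled AEG-1fl/fl) of the 10 genes in the 4 largest cell types, over all gated cells (filled) and over cells with little hepatocyte RNA (open); bars are 95% Clopper-Pearson intervals for counting error and the grey band spans the 5th to the 95th percentile of all genes with at least 20 counts. Over all gated cells Tgfbr1 in macrophage-like (-1.20), Smad7 in endothelial cell-like (-0.93) and Tgfb2 in hepatocyte-like cells (-1.03) lie below their band, and Tgfbr3 in macrophage-like cells (0.99) above it. With little hepatocyte RNA these macrophage-like and endothelial points lie inside it. Smad3 (-1.10) and Tgfb2 (1.10) in stellate cell-like cells then lie outside, but the band is that of all gated cells. Past 2-fold in stellate cell-like cells were 651 lower and 133 higher of 11413 genes over all gated cells, and 723 and 516 of 10192 with little hepatocyte RNA.

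The 73 other pathway genes, in 5 lists, were measured in the same cells. Of the 69 with at least 20 counts in stellate cell-like cells, 10 were past 2-fold lower in the library labelled AEG-1DMAC, where 5.7% of all genes were, and 1 was past 2-fold higher, where 1.17% were. The counts were 8 lower and 5 higher of 63 in macrophage-like cells, where 3.94% and 3% of all genes were. They were 5 lower and 1 higher of 66 in endothelial cell-like cells (3.87% and 1.56% of all genes), and 7 lower and 3 higher of 70 in hepatocyte-like cells (3.48% and 1.97%). The lists were chosen with earlier results of these data known, and several collagen genes were named by the study on these same libraries, so their direction is not independent evidence.

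The list of 20 TGF-β target genes was lower in stellate cell-like cells almost throughout. Of the 20, 18 had a log2 ratio below 0, each with an interval below 0, as had 22.4% of all genes, and the median was -0.77, against -0.16 over all genes. Col1a1, which encodes the main chain of type I collagen, stood at 1844 and 5811 CPM, a log2 ratio of -1.66 (-1.71 to -1.61), and its partner Col1a2 at 1794 and 4973 CPM, a log2 ratio of -1.47 (-1.52 to -1.42). Sphk1, a sphingosine kinase, had the lowest ratio of the list, at -1.98 (-2.72 to -1.30) from 21 and 126 counts. Col3a1 (type III collagen, -1.36) and Timp1 (a metalloproteinase inhibitor, -1.18) were the other 2 past 2-fold, and are named beside the rule because they complete the count. Acta2 (0.74, 0.42 to 1.06) and Tagln (0.29, 0.14 to 0.45), which encode contractile proteins of activated stellate cells, were the exceptions, with 78.3 and 46.8 CPM and 275 and 224 CPM. With little hepatocyte RNA their ratios were 1.94 (1.58 to 2.30) and 0.99 (0.77 to 1.21). The 4 portal fibroblast and mesothelial markers, all detected in stellate cell-like cells, stood at 25.8 and 10.1 CPM there, and their part in these values was not tested. With little hepatocyte RNA, 15 of 20 targets in stellate cell-like cells were below 0 and the median was -0.33, where 4666 of 10192 genes were below 0 with a median of 0.06, and Col1a1 was at -1.07.

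**Figure D5:**
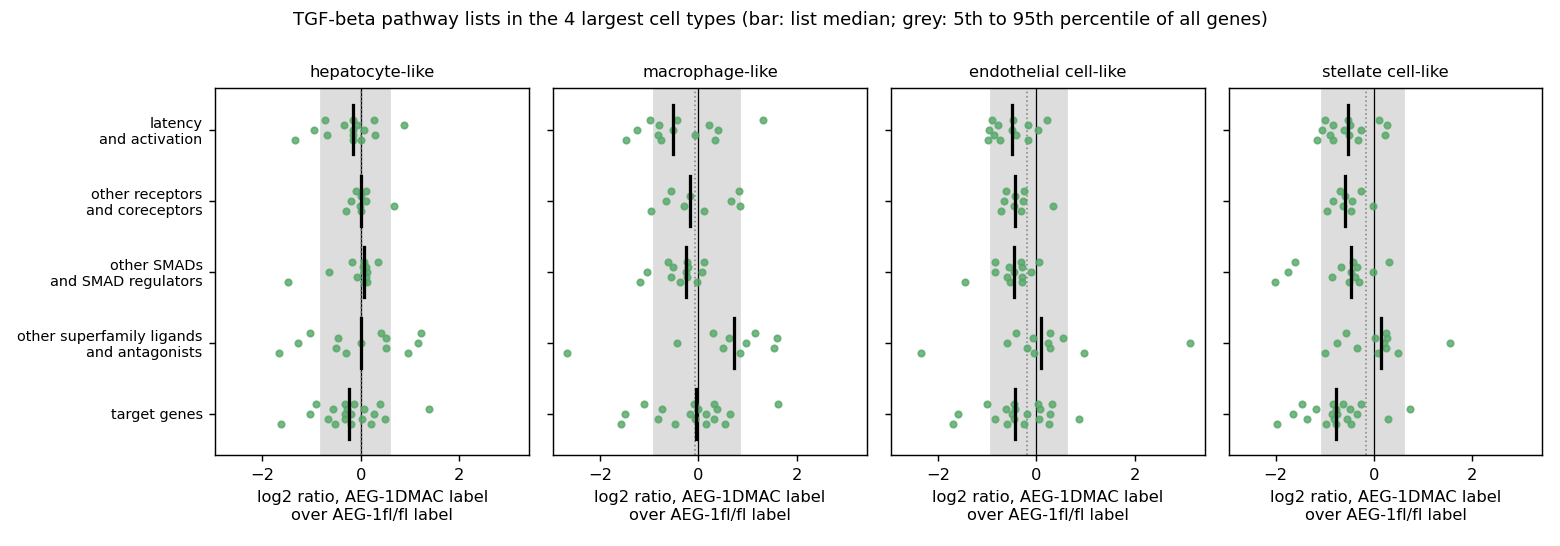
Log2 ratio (library labelled AEG-1DMAC over library labelled AEG-1fl/fl) of the 73 further TGF-β pathway genes by list in the 4 largest cell types; points are genes with at least 20 summed counts, black bars list medians, dotted lines the median of all genes and grey bands the 5th to 95th percentile of all genes. The target genes in stellate cell-like cells have a median of -0.77 against -0.16 for all genes, and the superfamily ligands in macrophage-like cells a median of 0.73 against -0.08.

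In the 3 other large cell types the target list was more evenly divided. Its median was -0.24 in hepatocyte-like (13 of 20 below 0), -0.04 in macrophage-like (10 of 18) and -0.44 in endothelial cell-like cells (12 of 19). Over the smaller types its median lay between -1.66 in dendritic cell-like cells (8 of 10 below 0, all genes 0.16) and 0.43 in neutrophil-like cells (6 of 14, all genes -0.12), with -0.99 in cholangiocyte-like cells (16 of 18, all genes -0.12) and -0.97 in B cell-like cells (15 of 17, all genes -0.053). Type I collagen genes in macrophage- and endothelial cell-like cells had the same direction as in stellate cell-like cells: Col1a1 had a log2 ratio of -1.5 in macrophage-like and -1.58 in endothelial cell-like cells, at 72.5 and 205 CPM and at 67.6 and 203 CPM, and Col1a2 ratios of -1.11 and -1.0. The 14 and 59 neutrophil-like cells went the other way, with Col1a1 at 2.25 (2.05 to 2.46). Their Col1a1 level of 2499 CPM in the library labelled AEG-1DMAC was above the 1844 CPM of stellate cell-like cells. However, 1 of these 14 cells held 53.2% of their counts (151703 of 285312), at a median of 6032.5 counts per cell. The part of this cell in the neutrophil-like values was not tested, and the counting interval does not cover it. Erythroid markers in neutrophil-like cells stood at 2334 and 185 CPM. With little hepatocyte RNA the ratios of Col1a1 and Col1a2 were -1.24 and -0.68 in macrophage-like and -0.65 and -0.30 in endothelial cell-like cells, the last with an interval (-0.65 to 0.042) that includes 0. The other collagen genes of the list did not all follow: Col4a1 and Col4a2 had ratios of 0.16 and 0.33 in macrophage-like cells, and Col3a1 in endothelial cell-like cells went from -0.46 over all gated cells to 1.03 with little hepatocyte RNA. The part of stellate cell RNA in these values was not tested. In macrophage-like cells Tnc (tenascin-C) had a ratio of 1.63 from 49 and 35 counts, and of -0.044 in those with little hepatocyte RNA. In hepatocyte-like cells Timp1 had a ratio of -1.03 and Acta2 a ratio of 1.38, both at under 4 CPM.

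Genes that hold TGF-β latent or free it were divided among the cell types. Ltbp4 (a latent TGF-β binding protein) and Lrrc32 (which encodes GARP, a cell-surface anchor of latent TGF-β) were highest in endothelial cell-like cells, at 828 and 1538 CPM and at 247 and 490 CPM. Ltbp1, Ltbp3 and the microfibril gene Fbn1 were highest in stellate cell-like cells. The activating integrin genes Itgav and Itgb5 were highest in macrophage-like cells, at 163 and 282 CPM and at 325 and 648 CPM, and Itgb6 and Itgb8 in cholangiocyte-like cells. Nrros, which encodes an anchor of latent TGF-β on myeloid cells, stood at 230 and 311 CPM in macrophage-like cells. The list's median log2 ratio was -0.51 in macrophage-like, -0.49 in endothelial cell-like, -0.54 in stellate cell-like and -0.15 in hepatocyte-like cells. With little hepatocyte RNA it was -0.64, -0.21 and -0.30 in the first 3 types, where all genes had 0.06, -0.04 and 0.06. Of 12 genes then tested in macrophage-like cells, 5 were past 2-fold lower, where 415 of 10729 genes were. Over all gated cells, Ltbp2 (-1.15) and the membrane protease gene Mmp14 (-1.06) in stellate cell-like cells were past 2-fold lower with at least 50 counts. So was the thrombospondin gene Thbs1 (-1.47, 19 and 116 counts) in macrophage-like cells. The summed level of the platelet markers was also lower there, and Seurat clusters gave 0.87 for Thbs1. Itgb3 in macrophage-like cells was past 2-fold higher at 1.31, but at -1.20 in those with little hepatocyte RNA.

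Among the other receptors, Eng (endoglin) was highest in endothelial cell-like cells at 1612 and 1934 CPM, and Bambi, a decoy receptor, in stellate cell-like cells at 63.3 and 113 CPM. All 9 receptor genes tested in stellate cell-like cells had a ratio below 0, with a median of -0.59 against -0.16 over all genes, and 7 of 9 had an interval below 0, as had 22.4% of all genes. With little hepatocyte RNA 5 of 9 were below 0, with a median of -0.32. Over all gated cells, none of the list was past 2-fold in any of the 4 cell types. In those with little hepatocyte RNA, 1 was past 2-fold lower in stellate cell-like cells, where 723 of 10192 genes were. Another 1 was past 2-fold higher in macrophage-like cells, where 285 of 10729 genes were. Among SMAD regulators, Pmepa1, a target and inhibitor of the pathway, was highest in stellate cell-like cells at 62.4 and 189 CPM. Its log2 ratio was -1.60 (-1.88 to -1.33) there and -1.04 in those with little hepatocyte RNA. In macrophage-like cells the ratio of Pmepa1 was -1.05, with -2.09 in those with little hepatocyte RNA and -0.79 with the stricter gate. Smad6, the inhibitory SMAD of the bone morphogenetic protein (BMP) branch, had a ratio of -1.74 (18 and 92 counts) in stellate cell-like cells. Smad9, a SMAD of the same branch, had a ratio of -1.47 (9.29 and 25.8 CPM) in hepatocyte-like cells. Its ratio in stellate cell-like cells was -2.01 (8 and 49 counts, 3.62 and 14.5 CPM) and -0.68 with the hepatocyte profile subtracted, and both levels were below those of hepatocyte-like cells.

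The ligands and antagonists of the wider superfamily had a median log2 ratio that differed between cell types. It was 0.73 in macrophage-like, 0.10 in endothelial cell-like, 0.14 in stellate cell-like and 0.00 in hepatocyte-like cells. Over the smaller types it ran from -0.91 in dendritic cell-like cells, over 2 genes only, to 0.28 in T and NK cell-like cells. In macrophage-like cells Bmp5 (1.59), Bmp6 (1.54) and the activin gene Inhbb (1.14) were past 2-fold higher, each at 24.0 CPM or less in the library labelled AEG-1DMAC. These 3 genes were highest in stellate cell-like (Bmp5) and endothelial cell-like cells (Bmp6 and Inhbb), at 327 and 418 CPM, 133 and 153 CPM, and 126 and 129 CPM, and the part of RNA from those cells in the macrophage-like values was not tested. With little hepatocyte RNA the list's median in macrophage-like cells was 0.26, over 6 genes. Inhbb was also past 2-fold higher in stellate cell-like cells, at 1.55 (48 and 25 counts). In hepatocyte-like cells Inhba, an activin gene, stood at 6.35 and 15.3 CPM (-1.27) and Bmp4 at 1.87 and 3.82 CPM (-1.03), while Inhbb (1.23) and Bmp10 (1.17) were higher at 3.14 and 1.25 CPM. Grem1 had 0 counts in both libraries.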

How the data were processed

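Fixed liver cells of 2 libraries, 1 per genotype label, were profiled with the mouse whole-transcriptome probe assay of 10x Genomics. The authors deposited raw counts (molecules per gene and cell), made with Cell Ranger 7.1.0 on mm10 per the submitters' processing notes, and normalized none of them. The number of livers per library and the calling of barcodes are not given in the sources used here.

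A cell was kept if 100 or more genes were detected in it and no more than 10% of its counts were mitochondrial. A cell took the type with the highest enrichment among those with at least 3 markers detected and at least 4-fold more marker counts than its depth predicts. Cells passing no gate were hepatocyte-like with at least 5000 counts, at least 2% of them in hepatocyte markers, and under 2-fold enrichment of other markers. These limits were set after the cells had been seen. Of the 93 markers 92 were measured. No doublet caller was run, and the 86 and 165 cells passing a second gate were left out in an alternative. Hepatocyte RNA was estimated as a type's share of hepatocyte marker counts relative to hepatocyte-like cells.

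Counts were summed per library and type and given as CPM with exact Poisson 95% intervals, and log2 ratios with Clopper-Pearson intervals. A count of 0 allows up to 3 counts. Ratios and lists used genes with at least 20 summed counts, and "past" means at least 2-fold. The study's MAST test over cells was not used, since cells are not replicates. Named genes were the 10 members, up to 3 highest and 3 lowest past 2-fold per list and type with at least 100 cells per library and 50 summed counts, and the 3 genes with the highest correlation of log2(CPM + 5) among those with at least 200 counts; the genes given for where they were highest were picked after their values were seen. Some genes that the rule names are not reported here. Members and lists were chosen with earlier results of these data known. Alternatives were Seurat clusters (2000 variable genes, 50 principal components), stricter gates and filters, cells of a second gate or shared barcodes left out, the hepatocyte profile subtracted, means over cells, median-ratio scaling, other limits and, chosen after seeing the data, cells with little hepatocyte RNA. The summing and intervals were tested on simulated data. Python 3.11.15, NumPy 2.4.6, SciPy 1.17.1, pandas 2.3.3, matplotlib 3.10.9, R 4.3.3 and Seurat 5.3.0 were used.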

Additional observations from a re-analysis of the deposited data

Results flagged for a closer look

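Some genes had log2 ratios between the labels whose counting intervals lay on opposite sides of 0 in different cell types. The differences between cell types were not tested, since there is 1 library per label. For Smad7 the ratio of hepatocyte-like cells exceeded that of endothelial cell-like cells by 1.39 and that of stellate cell-like cells by 1.33. For Smad3 it exceeded that of stellate cell-like cells by 0.94. For Tgfbr3 the ratio of hepatocyte-like cells exceeded that of endothelial and stellate cell-like cells by 0.66 and 0.76, and that of macrophage-like cells exceeded them by 1.22 and 1.31. The Tgfbr3 contrasts rest on ratios that changed sign in cells with little hepatocyte RNA (-0.18 in macrophage-like, 0.15 in endothelial cell-like and 0.12 in stellate cell-like cells).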

How the results depend on the processing

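With 1 library per label no replicate could be left out, and no counting interval covers the spread between mice. No paired analysis was possible because each label has 1 library. Of 49 ratios of the members, 28 kept their sign in every alternative, and of the 21 that did not, 6 had an interval that excluded 0: Tgfbr3 in macrophage-, endothelial cell- and stellate cell-like cells, Smad4 in endothelial cell-like cells, and Tgfb2 and Tgfb3 in cholangiocyte-like cells. Of 31 named pathway ratios, 28 kept their sign and 10 stayed past 2-fold in every alternative. In macrophage-like cells Thbs1 turned to 0.87 with Seurat clusters, Itgb3 to -1.20 with little hepatocyte RNA, and Tnc to -0.51 with the stricter gate, -1.98 without cells of a second gate, -0.044 with little hepatocyte RNA and -0.45 as a mean over cells; the cause was not tested.

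Counts of members past 2-fold lower went from 1 to 0 with the stricter gate (hepatocyte- and macrophage-like), means over cells (hepatocyte-like), and little hepatocyte RNA or the subtracted profile (macrophage-like). They went from 0 to 1 with Seurat clusters (endothelial and stellate), the stricter cell filter (endothelial) and little hepatocyte RNA (stellate), and to 2 with the stricter gate (stellate). Members past 2-fold higher went from 0 to 1 with the subtracted profile (macrophage-like, endothelial), median-ratio scaling (macrophage-like), means over cells (endothelial) and little hepatocyte RNA (stellate). A limit of 1.5-fold gave 3 members lower and 1 higher in macrophage-like, 2 lower in endothelial and 6 lower in stellate cell-like cells. For pathway genes it gave 13 lower and 6 higher in hepatocyte-like, 17 and 12 in macrophage-like, 21 and 3 in endothelial, and 32 and 2 in stellate cell-like cells.

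Pathway genes past 2-fold higher in hepatocyte-like cells were 5 with the stricter cell filter. In macrophage-like cells they were 1 with the stricter gate, 3 without cells of a second gate, 2 with little hepatocyte RNA, 15 with the subtracted profile and 8 as means over cells, and those lower were 5 with at least 50 counts. In endothelial cell-like cells those lower were 2 with the stricter gate, 1 with little hepatocyte RNA, 2 with the subtracted profile and 3 with at least 50 counts; those higher were 2, 2, 0, 5, 6, 3 and 0 with the stricter gate, the stricter cell filter, no second-gate cells, little hepatocyte RNA, the subtracted profile, median-ratio scaling and at least 50 counts. In stellate cell-like cells those higher were 0 with Seurat clusters, 2 with the stricter gate, 4 as means over cells, and 3 each without second-gate cells, with little hepatocyte RNA and with the subtracted profile. The share of Tgfb1 counts in macrophage-like cells was 28.7% and 42.7% with Seurat clusters, 12.7% and 23.8% with the stricter gate, and, in the library labelled AEG-1fl/fl, 35.5% without second-gate cells and 39.7% with little hepatocyte RNA. Over gated cells alone it was 23.8% and 39.8%, or 29.8% and 46.0% as means over cells.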
